A study of Mus musculus with 6 samples.

Results

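IL-6, its receptor chains, the JAK kinases that these recruit, the transcription factor STAT3 and the feedback genes below it were examined in primary mouse hepatocytes exposed to IL-1β. The group holds 10 genes chosen by name, namely Il6, Il6ra, Il6st, Lifr, Osmr, Jak1, Jak2, Stat3, Socs3 and Pim1, and all 10 were found among the 23282 genes of the table. Hepatocytes came from the livers of C57BL6/N mice and were kept in culture wells, 3 samples with no treatment (control) and 3 samples with recombinant IL-1β protein for 24 h. The age of the mice is not given in the sources used here. Nothing in the labels says whether the samples of a group came from separate mice, so the p-values measure the spread between these samples, which may be technical. The design text counts 2 samples per group but names 3, and all 6 were used.

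IL-6 reaches the hepatocyte through IL-6Rα, which then draws in gp130, the signaling chain encoded by Il6st. The related cytokines LIF and oncostatin M use gp130 together with LIFR or OSMR. JAK kinases bound to these chains phosphorylate STAT3, which enters the nucleus and switches on acute phase genes together with Socs3, whose product shuts the receptor down. In the liver this pathway is known as the main driver of the acute phase response and as a support of regeneration, and IL-1β acts beside it through NF-κB.

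Each library was read from the 3′ end of its mRNA (QuantSeq), and held between 9538741 and 11105408 counts. Counts were scaled by the TMM method of edgeR to normalised counts (CPM), and at these depths 3 counts, taken as the floor of detection, equal 0.27 to 0.315 CPM, a limit that covers counting error only. Because a transcript is read near its 3′ end, the counts do not separate membrane-bound from soluble receptor forms, and levels are compared here between groups and not between genes. IL-1β was compared with control by the quasi-likelihood test of edgeR, and p-values were adjusted by the Benjamini-Hochberg method across the 11657 genes with enough counts. Of these, 13.4% had an adjusted p below 0.05, with 6.97% higher and 6.44% lower after IL-1β, and 52% of the calls were higher, against 39.6% when libraries were scaled by their totals alone. The abundant hepatocyte marker Alb was present at 16200 ± 516 CPM (SD, n = 3) in controls, while the urea cycle genes Cps1 and Ass1 had means of only 2.65 and 0.717 CPM.

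Of the 9 genes of the group with enough counts to be tested, 4 rose and 1 fell, against 6.97% and 6.44% of all genes tested. Socs3 and Pim1 rose most, Stat3 and Il6ra rose by less than 1.5-fold, and Lifr fell. Osmr, Il6st, Jak1 and Jak2 did not pass the test, and Il6 had too few counts for it. The groups did not overlap in 7 of the 9 tested genes, against 28.2% of all genes tested. The plot of normalised counts per library shows all 10 genes.

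**Figure D1:**
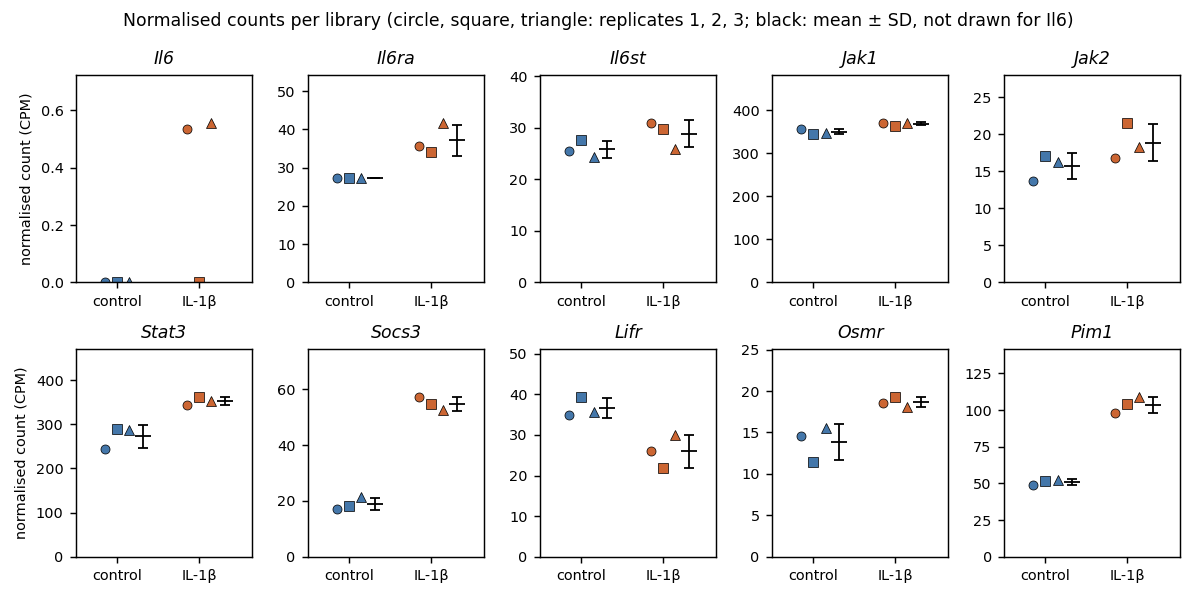
Normalised counts (CPM, linear axes from 0) of the 10 genes in each of the 3 control and 3 IL-1β libraries, with the mean and SD of each group in black except for Il6. The 3 IL-1β libraries lie above the 3 controls for Socs3 (52.4 to 57.3 against 17 to 21.3 CPM) and below them for Lifr (21.9 to 30 against 34.9 to 39.4 CPM).

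The promoters of 4 genes are shown as the sequence around the start sites of the largest increases (Socs3, Pim1), of the decrease (Lifr) and of the ligand gene Il6. They are RefSeq sequences on GRCm38.p6, from 250 bases before to 50 bases after the annotated start, 5′ to 3′ in the direction of the gene, and for Pim1 and Lifr, which have more than one, the first listed is given. Capitals mark matches on either strand to a STAT motif (TTCNNNGAA), a κB motif (GGG, any 3 bases, then TTCC) or a C/EBP motif (TTGCNNAA), where N is any base.
Socs3 (chr11:117969317-117969616, minus strand): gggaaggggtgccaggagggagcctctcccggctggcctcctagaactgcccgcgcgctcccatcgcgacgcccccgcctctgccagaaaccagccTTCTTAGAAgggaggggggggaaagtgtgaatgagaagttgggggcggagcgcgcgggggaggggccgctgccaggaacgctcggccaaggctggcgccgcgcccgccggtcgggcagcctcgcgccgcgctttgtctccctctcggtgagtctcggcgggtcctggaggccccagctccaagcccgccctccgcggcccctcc
Pim1 (chr17:29490535-29490834, plus strand): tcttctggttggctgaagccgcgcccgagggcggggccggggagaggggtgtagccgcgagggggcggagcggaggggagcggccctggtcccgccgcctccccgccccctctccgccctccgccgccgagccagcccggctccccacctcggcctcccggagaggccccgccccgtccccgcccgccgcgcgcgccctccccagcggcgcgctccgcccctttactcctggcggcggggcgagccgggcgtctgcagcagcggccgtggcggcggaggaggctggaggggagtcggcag
Lifr (chr15:7129322-7129621, plus strand): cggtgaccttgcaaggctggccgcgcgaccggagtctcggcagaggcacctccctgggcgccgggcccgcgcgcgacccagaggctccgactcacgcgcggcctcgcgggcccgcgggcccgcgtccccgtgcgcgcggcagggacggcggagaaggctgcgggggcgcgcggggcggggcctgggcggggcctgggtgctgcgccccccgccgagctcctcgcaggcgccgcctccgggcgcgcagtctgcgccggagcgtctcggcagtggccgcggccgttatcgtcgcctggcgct
Il6 (chr5:30012864-30013163, plus strand): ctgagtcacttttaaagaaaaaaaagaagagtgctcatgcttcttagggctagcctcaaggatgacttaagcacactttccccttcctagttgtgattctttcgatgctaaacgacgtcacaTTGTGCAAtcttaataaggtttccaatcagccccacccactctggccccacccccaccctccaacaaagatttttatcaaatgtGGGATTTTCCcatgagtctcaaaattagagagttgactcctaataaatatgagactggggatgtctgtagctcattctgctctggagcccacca
Socs3 holds 1 STAT match, TTCTTAGAA, which begins at position -154 relative to the start. Il6 holds a κB match, GGGATTTTCC, from position -44 and a C/EBP match, TTGTGCAA, from position -128, and none of the matches overlap. The windows of Pim1 and Lifr hold no match to these letters. Over the 12 promoters listed for the 10 genes, each motif was found in 1, against 8.3% of 32851 mouse promoters of the same length for STAT, 5.56% for κB and 10.8% for C/EBP.

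The first question was whether hepatocyte cultures given IL-1β made the ligand itself. Il6 (chromosome 5, 30013161 to 30019968, plus strand, mm10) encodes interleukin-6. It had 0 counts in each control library, and 5, 0 and 6 counts in IL-1β replicates 1, 2 and 3, that is 0.535, 0 and 0.558 CPM. A signal above the floor of 3 counts was thus present in 2 of 3 IL-1β libraries and in none of the controls, and the groups overlapped at 0. Counts were also summed over libraries and scaled for library size. Controls were taken at 3 counts in all, which is below the floor of 3 counts per library. The 11 counts after IL-1β were then 3.81-fold higher. This is no lower limit on the change, since IL-1β replicate 2 had 0 counts. Without the filter on low counts, edgeR gave Il6 an adjusted p of 0.121. Macrophages are a known source of IL-6, and the 13 Kupffer cell and macrophage markers summed to 247 to 277 CPM in controls and 252 to 285 CPM after IL-1β. Most of each sum was Cd68, at means of 192 and 184 CPM. RNA of some markers on the list was present in both groups, while other markers had few counts. Cd5l lay at 19.2 to 20.5 CPM in controls and 16 to 18.7 CPM after IL-1β (adjusted p = 0.392), and Marco at 2.86 to 5.24 and 5.3 to 7.27 CPM, with no overlap (adjusted p = 0.141). Clec4f stayed at or below 2.42 CPM, with 0 counts in IL-1β replicate 2, and Timd4 at or below 0.093 CPM in every library. Means in controls and after IL-1β were 0.856 and 1.33 CPM for Adgre1, 1.06 and 1.07 for Lyz2, and 0.295 and 0.261 for Vsig4. The part of these cells in the Il6 counts was not tested.

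Of the other ligands of the family, none of the 4 tested passed edgeR's test, 1 had an unadjusted p below 0.05, and DESeq2 and limma also called 0. Il11, the gene of interleukin-11, which shares gp130, had the largest difference, with 0.846, 1.43 and 1.61 CPM in controls and 2.03, 2.79 and 3.07 CPM after IL-1β (log2 fold change 1.02, adjusted p = 0.135). Its groups did not overlap. Lif had means of 0.853 and 1.33 CPM. Clcf1, which encodes cardiotrophin-like cytokine, had means of 18.1 and 16.7 CPM. Osm and Il27 had 0 counts in every library.

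Among the receptor chains, the data show one increase, one decrease and 2 differences that did not pass. Il6ra (chromosome 3, 89869324 to 89913162, minus strand) encodes the chain that binds IL-6. Its control libraries lay at 27.2, 27.3 and 27.4 CPM and its IL-1β libraries at 35.6, 34.2 and 41.8 CPM. All 3 treated libraries were above all 3 controls, with replicate 3 the highest. Il6ra rose 1.36-fold, a log2 fold change of 0.45 (standard error 0.114, 95% interval 0.21 to 0.68, adjusted p = 0.0078). Without IL-1β replicate 3 the log2 fold change was 0.36 and the adjusted p 0.0801. In that library the macrophage markers also had their highest sum, at 285 CPM. The sums were 257 and 252 CPM in the other IL-1β libraries and 247 to 277 CPM in the controls. Most of each sum was the 1 gene Cd68, at 179, 175 and 198 CPM after IL-1β and 172, 204 and 201 CPM in controls. The stellate cell and fibroblast markers also had their highest sum in IL-1β replicate 3, at 47 CPM. It was 42.4 and 43.4 CPM in the other IL-1β libraries and 39 to 41.7 CPM in controls. The part of such cells in the Il6ra change was not tested. In bulk RNA, a change in the number of cells of a type and in the RNA of each cell cannot be told apart.

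Il6st (chromosome 13, 112464070 to 112506860, plus strand) encodes gp130, the chain shared by the whole family. Control libraries of Il6st lay at 25.4, 27.6 and 24.4 CPM and its IL-1β libraries at 31, 29.7 and 25.9 CPM. The groups overlapped, since IL-1β replicate 3 was below control replicate 2. The log2 fold change was 0.16 (95% interval -0.09 to 0.41, adjusted p = 0.474), an interval that runs from -5.89% to 32.9% as a percent change.

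Lifr (chromosome 15, 7129572 to 7197489, plus strand) encodes the LIF receptor, which pairs with gp130 for LIF and, in the mouse, also serves other cytokines of the family. In controls Lifr lay at 34.9, 39.4 and 35.6 CPM and its IL-1β libraries at 26.1, 21.9 and 30 CPM. Every treated library was below every control, and the treated libraries were spread more widely. The log2 fold change of Lifr was -0.49 (95% interval -0.75 to -0.24, standard error 0.123, adjusted p = 0.00663), a level 0.71 times that of controls. Without IL-1β replicate 2, the lowest library, the adjusted p was 0.0729.

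Osmr (chromosome 15, 6813577 to 6874313, minus strand) encodes the oncostatin M receptor. Control levels of Osmr were 14.6, 11.4 and 15.5 CPM and its IL-1β libraries at 18.6, 19.3 and 18.1 CPM. All 3 treated libraries were above the controls and lay close together, whereas control replicate 2 was the lowest. The log2 fold change of 0.44 (standard error 0.155, 95% interval 0.12 to 0.76) did not pass after adjustment (adjusted p = 0.0648). It passed only without control replicate 3, at an adjusted p of 0.0498, and was 0.32 with an adjusted p of 0.269 without control replicate 2.

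**Figure D2:**
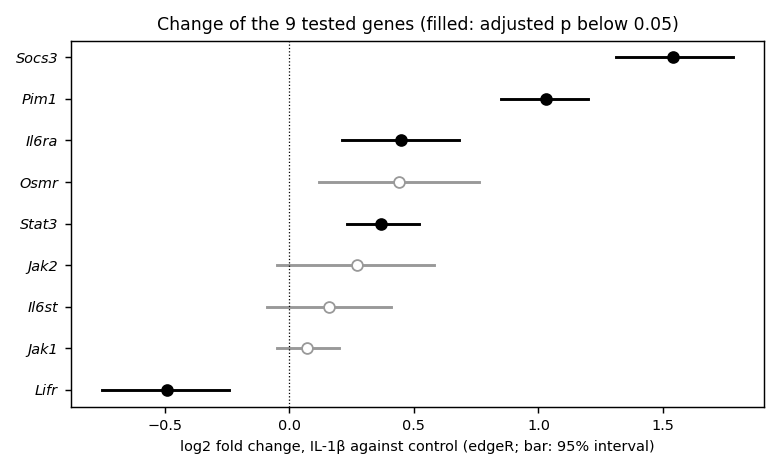
Log2 fold change after IL-1β for the 9 tested genes, with the 95% interval of edgeR's fit as a bar and filled points for an adjusted p below 0.05. Socs3 (1.54) and Pim1 (1.03) lie furthest to the right, Lifr (-0.49) alone lies to the left of 0, and the intervals of Il6st, Jak1 and Jak2 contain 0.

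Of the other receptor chains and the proteases that cut receptors from the cell surface, 1 of 3 tested genes rose. Over all genes tested, 6.97% rose. Adam17, whose product sheds IL-6Rα and TNF from the membrane, lay at 89.4, 88.9 and 88.9 CPM in controls and at 126, 136 and 115 CPM in treated libraries. It rose by 0.50 on the log2 scale, with a standard error of 0.079 (adjusted p = 5.26e-05). Its groups did not overlap. Adam10, a related sheddase, had means of 44.8 and 53.6 CPM and did not pass (adjusted p = 0.111). Il11ra1, the interleukin-11 receptor, had means of 75.5 and 73.5 CPM. Cntfr and Il31ra had 0 counts in every library.

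The kinases showed no difference that passed the test. Jak1 (chromosome 4, 101151974 to 101265282, minus strand) encodes the kinase on which gp130 signaling mainly depends. Jak1 lay in the control libraries at 357, 345 and 347 CPM and its IL-1β libraries at 370, 364 and 371 CPM. The treated libraries were all above the controls, by a small step. The log2 fold change was 0.07 (95% interval -0.05 to 0.20, adjusted p = 0.526), which places the change between -3.53% and 15%. Jak2 (chromosome 19, 29251803 to 29313080, plus strand), the second kinase bound to gp130, lay at 13.7, 17.1 and 16.3 CPM in controls and at 16.8, 21.6 and 18.3 CPM after IL-1β. Its groups overlapped, and the log2 fold change was 0.27 (95% interval -0.05 to 0.58, adjusted p = 0.306).

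Stat3 (chromosome 11, 100886810 to 100939511, minus strand) encodes the transcription factor that gp130 activates. Control levels of Stat3 were 243, 289 and 287 CPM and its IL-1β libraries at 344, 362 and 353 CPM. All treated libraries were above all controls, and control replicate 1 was the lowest. Stat3 rose 1.29-fold, a log2 fold change of 0.37 (standard error 0.071, 95% interval 0.23 to 0.52, adjusted p = 0.000472). Without control replicate 1 it was 0.29. The mRNA level says nothing of phosphorylation, which was not measured in these files.

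None of the 9 other kinases, STATs and adaptors passed edgeR's test, 1 had an unadjusted p below 0.05, and DESeq2 and limma also called 0. Their median log2 fold change was -0.03, against -0.002 over all genes tested. Tyk2, the remaining kinase of the family at gp130, had means of 28.1 and 26.9 CPM. Ptpn11, which encodes the phosphatase SHP2 that links gp130 to the MAP kinases, had means of 208 and 207 CPM (95% interval of the log2 fold change -0.15 to 0.14).

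The feedback gene Socs3 showed the largest change of the group. Socs3 (chromosome 11, 117966087 to 117969366, minus strand) encodes the suppressor that binds gp130 and JAKs and ends the signal. Socs3 in the control libraries lay at 17, 18.3 and 21.3 CPM and its IL-1β libraries at 57.3, 54.7 and 52.4 CPM. The groups were far apart compared with the spread within them. Socs3 rose 2.91-fold (95% interval 2.47 to 3.42), or by 1.54 on the log2 scale with a standard error of 0.113 (adjusted p = 1.31e-10). Leaving out each library gave 1.47 to 1.63.

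Pim1 (chromosome 17, 29491045 to 29495459, plus strand) encodes a serine/threonine kinase that STAT factors induce and that favors cell survival. Pim1 in controls lay at 48.8, 51.8 and 52 CPM and its IL-1β libraries at 97.9, 104 and 109 CPM. The groups were again clearly separated. Pim1 rose 2.04-fold (95% interval 1.81 to 2.3), or by 1.03 on the log2 scale with a standard error of 0.085 (adjusted p = 1.09e-09). An annotated antisense gene overlaps Pim1 (Gm26885) and another overlaps Il6ra (Gm42809), and part of Jak1 is overlapped by Raver2 on the other strand and holds a pseudogene (Gm12785) on its own. The strand setting of the authors' counting is not given in the sources used here, so reads of such partners cannot be told apart. Cut into windows of 75 nt, the final 500 nt of the transcripts of these 10 genes had 0% of windows in common with transcripts of any other gene. Windows were compared in the sense direction only, so this does not cover the partners on the other strand.

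**Figure D3:**
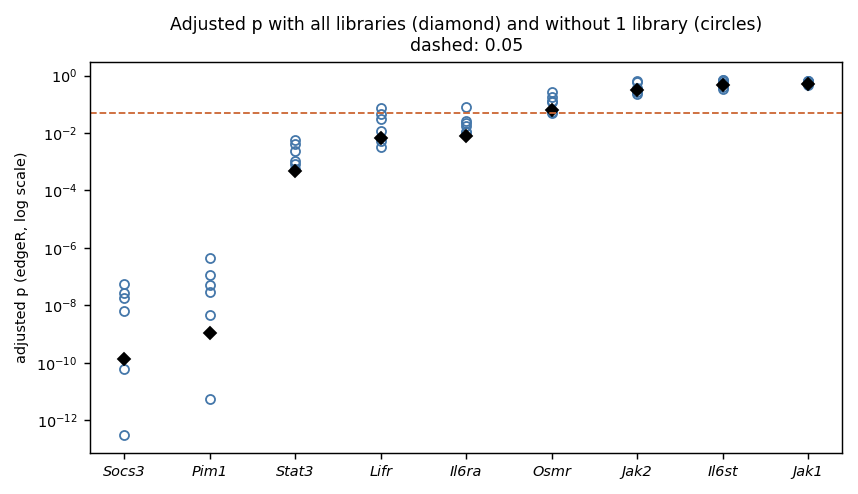
Adjusted p of edgeR's test (log axis) for the 9 tested genes, with all 6 libraries as a diamond and with 1 library left out as circles, and the dashed line at 0.05. Socs3, Pim1 and Stat3 stay below the line in each of the 6 fits, and Lifr and Il6ra rise above it in 1 fit each (0.0729 and 0.0801).

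Ratios between 2 genes of the same library do not depend on how libraries are scaled, so 4 were compared between the groups by exact permutation tests over the 6 samples, for which 0.1 is the smallest two-sided p. The ratio of Osmr to Lifr counts was 0.418, 0.29 and 0.438 in controls and 0.714, 0.882 and 0.605 after IL-1β. The ratio was 1.93-fold higher after IL-1β with no overlap (exact p = 0.1, adjusted over the 4 ratios 0.133). The ratio of Socs3 to Stat3 counts was 0.0703, 0.0635 and 0.0744 in controls and 0.167, 0.151 and 0.149 after IL-1β. This is 2.24-fold higher with no overlap (exact p = 0.1, adjusted 0.133). The ratio of Il6ra to Il6st was 1.07, 0.99 and 1.12 in controls and 1.15, 1.15 and 1.61 after IL-1β. These groups barely separated (exact p = 0.1, adjusted 0.133), and the log2 difference of 0.28 became 0.12 without IL-1β replicate 3. The ratio of Jak2 to Jak1 overlapped between the groups (exact p = 0.5).

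**Figure D4:**
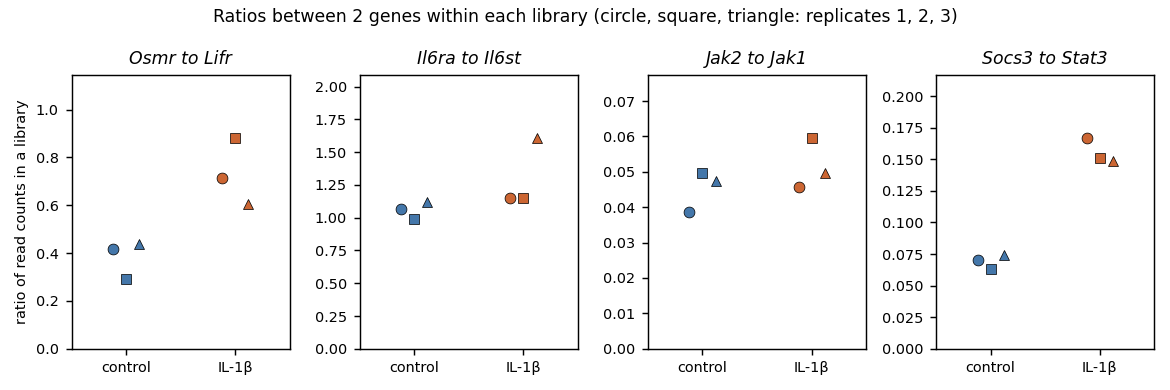
Ratio of the read counts of 2 genes within each library (linear axes from 0), for 3 control and 3 IL-1β libraries. Osmr to Lifr and Socs3 to Stat3 are higher in every IL-1β library than in any control, Il6ra to Il6st is higher by a small margin apart from IL-1β replicate 3 at 1.61, and Jak2 to Jak1 overlaps.

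Of 10 other brakes on JAK-STAT signaling, 3 rose, 0 fell and 7 did not pass, with a median log2 fold change of 0.18. Over all genes tested, 6.97% rose and 6.44% fell. At an unadjusted p below 0.05 the count of brakes was 4, and DESeq2 and limma called 3 each. This list, too, was chosen with earlier results of these data known. Ptpn2, a phosphatase that acts on JAK1 and STATs, lay at 27.1, 23.8 and 33.6 CPM in controls and at 56.2, 58.1 and 45.6 CPM after IL-1β (log2 fold change 0.92, adjusted p = 4.72e-06). Socs1, a relative of Socs3, lay at 2.16, 0.985 and 0.202 CPM in controls and at 3.85, 6.44 and 2.88 CPM after IL-1β. Its log2 fold change of 1.95 had a standard error of 0.493 (adjusted p = 0.0074) and rests on few counts. Leaving out IL-1β replicate 2 moved the adjusted p to 0.111. Cish, a feedback gene best known from STAT5 signaling, had means of 9.86 and 15.2 CPM with overlapping groups (adjusted p = 0.0325), and its adjusted p was between 0.1 and 0.169 in 4 of the 6 fits without 1 library and 0.0504 with scaling by library totals. Without IL-1β replicate 2 only 1 of the 10 passed. Socs2, at means of 25.5 and 20.3 CPM, did not pass (adjusted p = 0.112).

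Of 3 genes whose proteins act on the stability of Il6 mRNA, 1 rose, against 6.97% of all genes tested. Zc3h12a, which encodes the RNase Regnase-1 that degrades Il6 mRNA, lay at 9.86, 18.8 and 19.2 CPM in controls and at 67.7, 68.5 and 66 CPM in treated libraries. It rose by 2.08 on the log2 scale, with a standard error of 0.152 (adjusted p = 1.16e-10). Arid5a, which stabilizes Il6 mRNA, had means of 5.1 and 6.86 CPM (adjusted p = 0.336). Zfp36, which encodes the decay factor tristetraprolin, had means of 10.6 and 9.43 CPM (adjusted p = 0.666).

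Genes known to lie downstream of STAT3 were examined next. Of 14 tested, 8 rose, 2 fell and 4 did not pass, with a median log2 fold change of 0.34. DESeq2 called 10 and limma 11 of them, scaling by library totals gave 12, and 8 to 10 passed with a sample left out. The list was chosen with earlier results of these data known. Over all genes tested, 6.97% rose and 6.44% fell. Cebpd, a transcription factor of the acute phase, rose from 44.7 ± 12.3 in controls to 216 ± 14.7 CPM (± SD, n = 3 in each group), a log2 fold change of 2.27 (adjusted p = 2.34e-13). The adhesion molecule gene Icam1 rose from 42.6 ± 3.83 in controls to 69.5 ± 1.4 CPM, Vegfa, the gene of an angiogenic growth factor, from 44.5 ± 3.53 to 63.4 ± 7.66 CPM, and the metalloproteinase inhibitor gene Timp1 from 4.03 ± 0.746 to 9.31 ± 1.33 CPM (SD, n = 3 per group). Junb and Myc, immediate-early transcription factors, rose by log2 fold changes of 0.36 and 0.55. Bcl3, an IκB family member, and Pim3, a relative of Pim1, rose by 0.33 and 0.32. The genes that fell were Ccnd1, which encodes cyclin D1, and Birc5, which encodes the mitotic protein survivin, with log2 fold changes of -1.10 and -1.48 (adjusted p = 0.0062 and 0.0314). The 4 that did not pass edgeR's test were Mcl1, Bcl2l1, Fos and Pim2. Mcl1 and Bcl2l1 had log2 fold changes of -0.20 and -0.19 (adjusted p = 0.0613 and 0.107), with no overlap of the groups. Fos (0.46) and Pim2 (-0.24) had overlapping groups. These 4 genes, and Bcl3, Pim3, Ccnd1 and Birc5, were named after their values were seen. Several of the 14, among them Icam1, Junb, Myc and Bcl3, are also known targets of NF-κB or AP-1, and the part of each factor was not tested.

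Of 12 tested liver genes whose secreted products IL-6 is known to induce, 8 rose, 0 fell and 4 did not pass. Their median log2 fold change was 0.40. DESeq2 called 7 and limma 8 of them, and 7 to 8 passed with a sample left out. The list was chosen with earlier results of these data known. Over all genes tested, 6.97% rose and 6.44% fell. Hamp, the gene of the iron hormone hepcidin, rose from 6.92 ± 0.323 in controls to 68.4 ± 14.4 CPM (± SD, n = 3 in each group), or by 3.30 on the log2 scale with a standard error of 0.152 (adjusted p = 1.56e-14). Apcs, the gene of serum amyloid P, lay at 133, 140 and 159 CPM in controls and at 451, 479 and 476 CPM after IL-1β (log2 fold change 1.70). Lbp, which encodes the LPS-binding protein, rose by 1.03, the copper carrier gene Cp by 0.72, the glycoprotein gene Lrg1 by 0.54 and haptoglobin (Hp) by 0.36 on the log2 scale. The list is named for what IL-6 is known to do. The parts of IL-6 and of IL-1β itself in these changes were not tested.

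The fibrinogen chains, which are classical products of IL-6 signaling in the liver, differed in their calls, a difference that was not itself tested. Fga rose from 37.8 ± 4.37 in controls to 50.7 ± 4.66 CPM (± SD, n = 3 in each group, log2 fold change 0.43, adjusted p = 0.00759). Fgb lay at 4384, 5197 and 5033 CPM in controls and at 4467, 5262 and 4521 CPM after IL-1β, with overlapping groups (log2 fold change -0.04, 95% interval -0.18 to 0.10). Fgg had means of 193 and 201 CPM (log2 fold change 0.06, 95% interval -0.12 to 0.23). Hemopexin (Hpx) passed with a log2 fold change of 0.38 although its groups overlapped. Serpina3n and Itih4 had log2 fold changes of -0.09 each and did not pass, and A2m, with counts in 1 library only, was not tested. The fibrinogen chains, Hpx, Serpina3n, Itih4 and A2m were picked from the list after their values were seen.

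**Figure D5:**
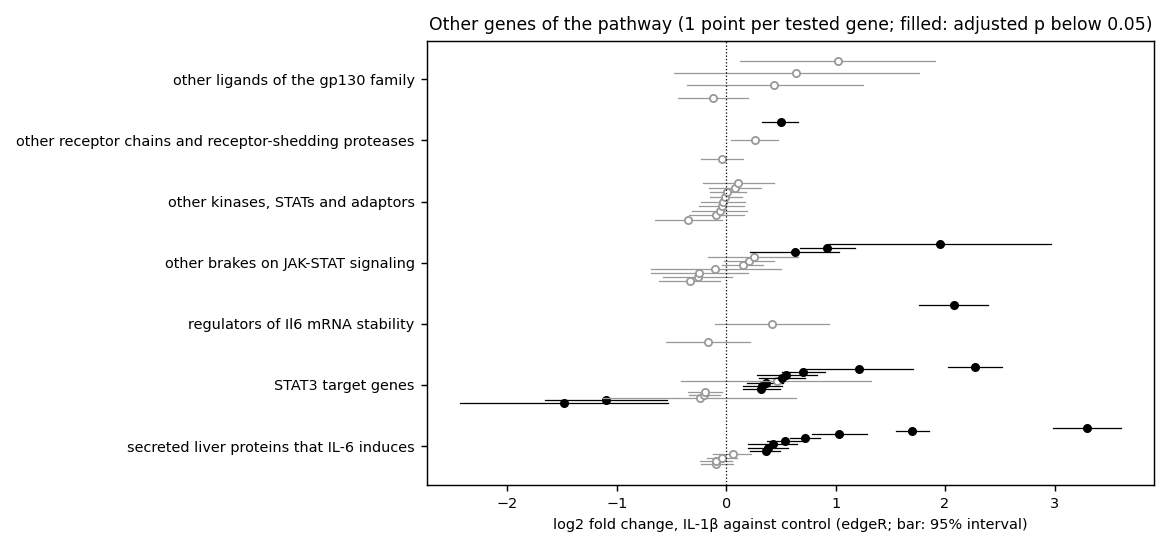
Log2 fold change after IL-1β for each tested gene of 7 further lists of the pathway, with 95% intervals and filled points for an adjusted p below 0.05. No filled point appears among the 4 ligands and the 9 kinases, STATs and adaptors, while 10 of 14 STAT3 target genes and 8 of 12 secreted liver proteins are filled. Of all genes tested, 13.4% had an adjusted p below 0.05. The 7 lists were chosen with earlier results of these data known.

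Markers of other cells in the cultures were measured beside these genes. Over all genes tested, 6.97% rose and 6.44% fell. Among 10 tested macrophage markers, 0 passed edgeR's test, with 3 at an unadjusted p below 0.05 and 0 by DESeq2 or limma. Their median log2 fold change was 0.38, with 7 of 10 above 0, against a median of -0.002 over all genes tested. Marco, Csf1r, C1qa, C1qb, Lyz2 and Adgre1 had few counts, with standard errors of 0.286 to 0.584. The 3 at an unadjusted p below 0.05 were all higher after IL-1β, namely Marco (0.67), Cd74 (0.56) and C1qa (0.75), while the most abundant, Cd68 and Ctss, had log2 fold changes of -0.06 and -0.02. Of 8 endothelial markers 1 rose and 2 fell, with sums of 74 to 79.8 CPM in controls and 70.2 to 75.9 CPM after IL-1β, and their median log2 fold change was -0.56. Clec4g fell by 2.87 (adjusted p = 1.9e-05) and Kdr by 1.49 on the log2 scale (adjusted p = 0.00511), and Stab2 and Fcgr2b had log2 fold changes of -1.16 and -0.82 without passing. The most abundant were Eng, at 0.02, and Lyve1, which rose by 0.45 but did not pass with library totals (adjusted p = 0.0507) or in 4 of the 6 fits without 1 library (without control replicate 1 or 3, or IL-1β replicate 2 or 3, adjusted p = 0.0807 to 0.137). Of 3 tested stellate cell and fibroblast markers 0 passed (0 at an unadjusted p below 0.05 and 0 by DESeq2 or limma), led by Sparc (0.02) and Dcn (0.14), with sums of 39 to 41.7 and 42.4 to 47 CPM. The defining stellate marker Lrat stayed at or below 0.202 CPM. Markers with too few counts to test differed between libraries. Col1a1 lay at 0, 0.179 and 1.21 CPM in controls and 0.214, 0 and 3.35 CPM in IL-1β replicates 1, 2 and 3. Pdgfrb lay at 0.0939, 0 and 0.101 CPM in controls and 0, 0.288 and 1.21 CPM after IL-1β. Des had means of 0.279 and 0.0976 CPM and Reln of 0.464 and 0.697 CPM. Of the 6 neutrophil markers, 4 had 0 counts throughout, and Csf3r stayed at or below 0.214 CPM. S100a8 had 0 counts in controls and 2.03 to 4.74 CPM after IL-1β. Summed and scaled for library size, its counts were 36.7-fold higher than controls taken at 3 counts in all, below the floor per library. Of 6 lymphocyte markers 5 had 0 counts in every library. Of the cholangiocyte markers, Spp1 fell by 1.20 on the log2 scale and Sox9 was at 0.21 (adjusted p = 0.0519). Sox9 passed, as higher, with DESeq2 (adjusted p = 0.0414), limma (0.048), the 10-count minimum (0.0447) and the replicate block (0.0401). It also passed without control replicate 1 (0.0473), but not with the other settings. The sums, mostly Spp1 and Sox9, were 316 to 329 and 236 to 240 CPM. The defining marker Krt19 lay at 0.564, 0.269 and 0.202 CPM in controls and had 0 counts in each IL-1β library.

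Of 8 tested hepatocyte markers 7 fell by edgeR's test, against 6.44% of all genes tested, while DESeq2 called 6 and limma 5 of the 8. Their median log2 fold change was -0.45, with summed levels of 21380 to 21645 CPM in controls and 17266 to 18170 CPM after IL-1β. Ahsg, the gene of fetuin-A, fell by 1.39 and Hnf4a, a transcription factor of hepatocyte identity, by 1.04 on the log2 scale, both with no overlap (adjusted p = 1.56e-14 and 1.62e-09). The most abundant markers, Alb and Apoa1, changed less. Alb fell by 0.20 on the log2 scale, but did not pass with limma (adjusted p = 0.0882), without control replicate 2 (0.0744) or without IL-1β replicate 1 (0.0894). Apoa1 fell by 0.33, but did not pass with DESeq2 (adjusted p = 0.465), limma (0.0604), without control replicate 1 (log2 fold change -0.094, adjusted p = 0.395) or without any 1 of the 3 IL-1β libraries (adjusted p up to 0.252). Marker genes other than the 2 most abundant of each cell type were picked after their values were seen. The part of cell composition in the changes of the IL-6 pathway was not tested.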

How the data were processed

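Primary mouse hepatocytes, 3 control and 3 IL-1β samples, were profiled by 3′ mRNA sequencing (QuantSeq), in single-end mode at 75 nt. Per the labels, the authors aligned the reads with Bowtie2, on a build their processing notes give as mm10 or GRCm38, and the counting tool and strand setting are not given in the sources used here. The authors deposited raw read counts per gene, which were used, and log2 normalized values, group averages, fold changes and p-values, which were not. Genes with a repeated symbol (79 rows) were kept as separate rows and include none of the genes named.

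The count table was tested with edgeR 4.0.16 under R 4.3.3 (filterByExpr, TMM, quasi-likelihood F test) over 11657 genes, with a threshold of 0.05 on the adjusted p. The standard error is the log2 fold change divided by the square root of F. In simulated data for this comparison (11511 genes), 98 genes were changed 2-fold and 99 genes 1.5-fold, up or down. Of these, 76.5% and 54.5% were called, and 8.51% of calls were unchanged genes. These rates depend on the share of genes changed, which was smaller there than the 13.4% called in the data. Alternatives were DESeq2 1.42.0, limma 3.58.1 on log2(CPM + 1), scaling by the upper quartile or by library totals, all genes without a filter, a minimum of 10 counts in each sample, the replicate number as a block and leaving out each sample. Within-library ratios used a prior count of 1 and Python 3.11.15. Library totals were 9538741 to 11105408, and Rn45s took 11.69% to 14.19% of counts. Log2 CPM correlated across genes by 0.987 to 0.99 within groups and 0.971 to 0.977 between them.

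Beside the 10 genes, the text names up to 6 genes with an adjusted p below 0.05 and the smallest values in each further list, and the 2 most abundant markers of each cell type. Other genes, among them further markers and genes that did not pass, were chosen after their values were seen. The genes and lists were chosen with earlier results of these data known. One hepatocyte marker symbol (Tf) has no row.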

Additional observations from a re-analysis of the deposited data

How the results depend on the processing

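Socs3, Pim1, Stat3, Il6ra and Lifr stayed on the same side of 0 and passed under all 7 alternatives that used every sample, and Osmr, Jak1, Jak2 and Il6st did not pass under any of these. Log2 fold changes over these alternatives were 1.49 to 1.54 for Socs3, 0.97 to 1.03 for Pim1, 0.317 to 0.375 for Stat3, 0.39 to 0.45 for Il6ra, -0.55 to -0.49 for Lifr and 0.38 to 0.44 for Osmr. With each sample left out, 4 to 6 of the 10 genes passed, and 1131 to 1596 of all genes, against 1563 with all samples. Brakes on JAK-STAT signaling went from 3 calls to between 1 and 3. The ratios kept their direction throughout, with log2 differences of 0.76 to 1.08 for Osmr to Lifr, 1.10 to 1.22 for Socs3 to Stat3, 0.12 to 0.36 for Il6ra to Il6st and 0.080 to 0.27 for Jak2 to Jak1 when a sample was left out.

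Same-numbered control and IL-1β samples did not deviate together (correlations of 0.08, 0.03 and 0), so the replicate numbers were not taken as pairs. With the replicate number as a block, 1671 genes passed, with 5 of the 10 among them, and the log2 fold change was 1.54 for Socs3, 0.37 for Stat3 and -0.50 for Lifr. The ratios with 3 pairs cannot give a p below 0.25.

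Values that changed direction were near 0. Eng was -0.013 with upper-quartile scaling, -0.039 with library totals and -0.048 to 0.12 with a sample left out. Sparc was -0.011, -0.036 and -0.016 to 0.045 in the same order. Ctss was -0.077 to 0.022 with a sample left out. Among single genes, 5 values lost their call and 4 gained one with every sample, and 17 and 2 did so with a sample left out; the cause was not tested. Genes near 3 counts per library, such as Il6, are limited by depth.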

Other observations

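The spread between replicates exceeded counting error in some of the genes and not in others. Stat3, with 2588 to 3796 counts per library, had a counting error of at most 1.97% of a library's value, while its control libraries had a coefficient of variation of 9.47% and its IL-1β libraries one of 2.57%. Osmr, with 127 to 201 counts, had a counting error of up to 8.87%, with coefficients of variation of 15.7% in controls and 3.18% after IL-1β. Lifr was more variable after IL-1β (15.6%) than in controls (6.56%), as was Il6ra (10.9% against 0.471%), whose control libraries lay closer together than its counting error of 4.71% to 6.06%. With 3 libraries per group, differences in spread were not tested.

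When no filter on low counts was applied, Il6 entered the edgeR test with an unadjusted p of 0.0165 and an adjusted p of 0.121.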
